A study of Mus musculus with 4 samples.

Results

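Expression of 10 genes of the Kruppel-like factor family (Klf2, Klf3, Klf4, Klf5, Klf6, Klf7, Klf9, Klf10, Klf13 and Klf15) was examined in mouse embryonic fibroblasts on 4 one-colour microarrays, with 1 array per condition. The members were taken by gene name from the array's own annotation, which put 18 of the 41174 probes that are not controls on these genes, or 10 of 27745 gene names. On 2 arrays the cells had received 4 transduced genes (c-Myc, Klf4, Oct3/4 and Sox2), are here called four-factor cells, and had spent 72 hours at 5% or 21% O2, with day 4 given as the day of the sample. The other 2 arrays held the same type of fibroblast without transduction, here called untransduced cells, kept at 5% or 21% O2 over 10 days. The design text calls these oxygen levels hypoxia and normoxia. The vector that carried the factors, the strain, the age of the embryos and the number of embryos pooled are not given in the labels used here. Culture type is therefore tied to time in culture, and also to the slide, and these cannot be told apart.

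Kruppel-like factors bind GC-rich and CACCC-containing DNA through zinc fingers at the end of the protein, and they act as activators or repressors according to the cofactors that the rest of the protein recruits. Klf4 is one of the classical reprogramming factors, and Klf2 and Klf5 take part in the self-renewal of mouse embryonic stem cells. In fibroblasts and their relatives several members respond quickly to serum, to TGF-beta or to glucocorticoids, and several act on fat cell differentiation.

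Each level below is the log2 of a probe's background-subtracted signal minus the array's own 75th percentile, so a level of 0 is that percentile, and a difference of 1 is 2-fold. Between probes these levels have no order, and each comparison is made within a probe. Of the 18 probes, 16 were well above background on all 4 arrays. Each gene stands under its brightest probe, the one with the highest mean level, and all 10 genes were measured by it on every array. The second probes of 8 members are given beside it, where Klf4 and Klf10 have 1 probe each. With 1 array per condition a single difference has no test and no standard deviation. Replicate spots within an array give the precision of a spot, which for a difference came to 0.142 log2 units for oxygen in four-factor cells, 0.0919 for oxygen in untransduced cells, and 0.126 and 0.113 for four-factor minus untransduced cells at 5% and 21% O2. It says nothing of the spread between cultures.

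The arrays' 75th percentiles were 1148 and 1136 intensity units in four-factor cells at 5% and 21% O2, against 871 and 810 units in untransduced cells, and 68.4% and 68.1% of probes were well above background on the four-factor arrays, against 58.3% and 57.1% on the untransduced arrays. No spot was saturated. The lowest signal well above background was 9.64 and 9.86 units in four-factor cells at 5% and 21% O2. In untransduced cells it was 24.9 and 26.5 units, so dimmer signals passed on the four-factor arrays. Of the other transduced genes, Pou5f1, which encodes Oct3/4, had levels of -0.20 and -0.59 in four-factor cells at 5% and 21% O2. It was not well above background in untransduced cells, so it was at least 30.5-fold and 20.4-fold higher in four-factor cells at those oxygen levels. Myc was 4.17 and 2.59 higher on one probe and 4.98 and 3.53 higher on another at 5% and 21% O2, but on the remaining probe it was 0.74 and 1.51 log2 units lower. Sox2 was lower by 2.82 at 5% O2 and at least 5.14-fold lower at 21% O2. All 10 fibroblast markers were well above background on every array, with median levels of 4.38 and 4.64 in four-factor cells and 6.74 and 6.66 in untransduced cells at 5% and 21% O2.

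Set against untransduced cells, 4 Klf genes were at least 2-fold lower in four-factor cells at 5% O2, namely Klf4, Klf5, Klf6 and Klf15, and 3 of these at 21% O2, where Klf5 was not. No member was at least 2-fold higher at either oxygen level. Among all 15506 genes compared, 20% were at least 2-fold lower and 17.1% higher at 5% O2, and 16.6% lower and 11.8% higher at 21% O2 (of 15277), so large differences between these cultures were common. The median difference of the 10 members was -0.57 at 5% and -0.23 at 21% O2, against -0.02 over all genes at each level, but scaled on spike-in controls it was 0.14 and 0.27. With oxygen no member differed 2-fold in either culture, where 1.25% of 18006 genes were higher and 1.07% lower in four-factor cells, and 2.54% of 15255 genes were higher and 1.72% lower in untransduced cells.

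**Figure D1:**
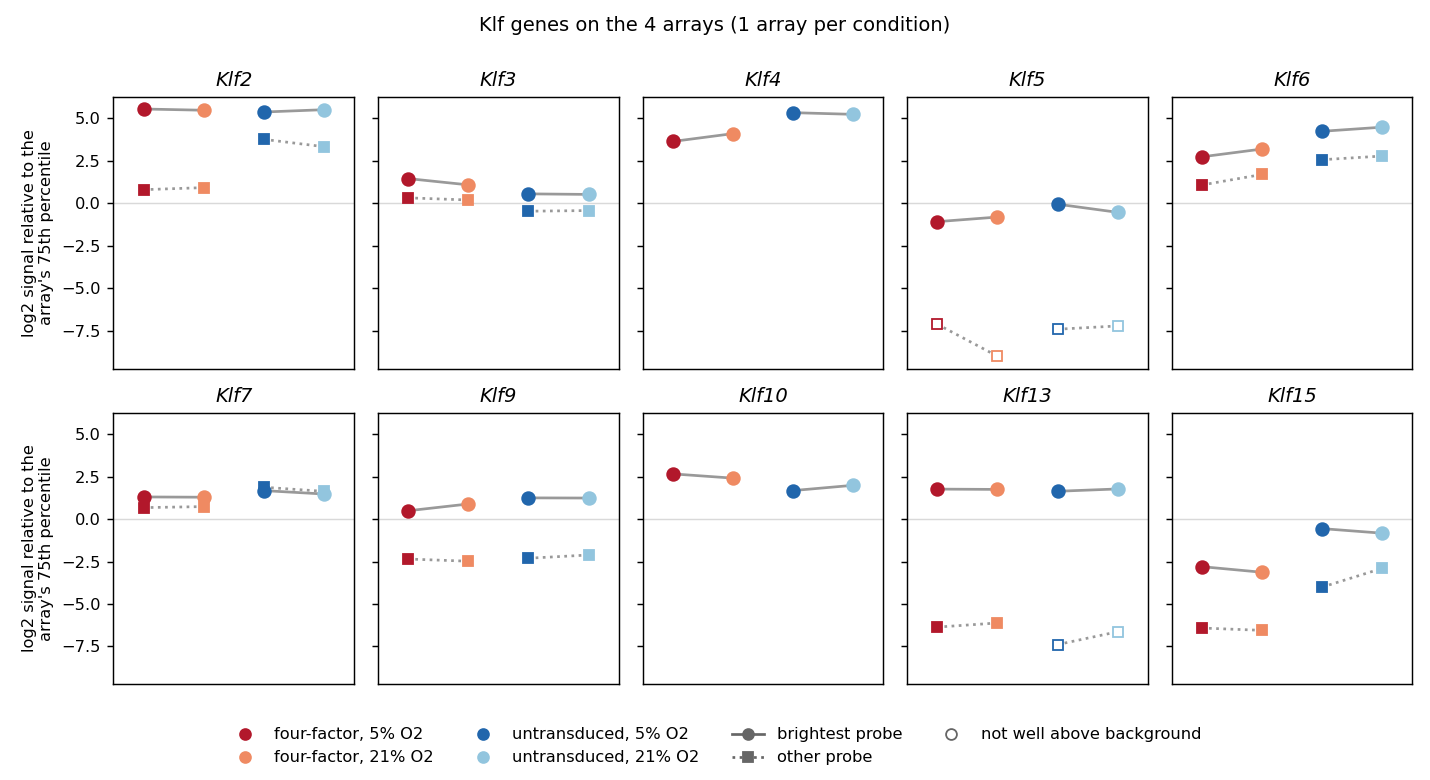
Levels of the 10 Klf genes on the 4 arrays (vertical axis: log2 signal against each array's 75th percentile; 1 array per condition, with four-factor cells at 5% and 21% O2 left of untransduced cells at 5% and 21% O2). Circles with solid lines are the brightest probe, squares with dotted lines the other probe, and open symbols were not well above background; Klf4, Klf6 and Klf15 are lower in four-factor cells on all their probes, and the 2 probes of Klf2 part.

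An additive model (limma, culture plus oxygen) was the one fit that left a residual, of 1 degree of freedom. A gene's own residual is the disagreement between both cultures about oxygen. The eBayes step pooled it with a value drawn from all genes, so each SE below rests partly on the other genes. In this model 27.2% of 18359 genes were called higher and 22.7% lower in four-factor cells at an adjusted p under 0.05. Of the members, 3 were called lower (Klf4, Klf6 and Klf15) and 1 higher (Klf3), a share near that of all genes. The share of genes on either side rests on the scaling. Scaling on 8 spike-in controls added 0.70 to every difference at 5% and 0.50 at 21% O2. The median of all genes then moved to 0.69 at 5% and 0.48 at 21% O2, and the genes at least 2-fold higher and lower became 5882 and 1600 at 5% O2 (2648 and 3097 with the percentile) and 4036 and 1485 at 21% O2 (1807 and 2536 with the percentile). Under that scaling Klf15 alone of the members remained at least 2-fold lower, by 1.54 at 5% and 1.80 at 21% O2, and Klf3 was at least 2-fold higher at both levels (1.60 and 1.07) and Klf10 at 5% O2 (1.69).

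Klf4, Klf2 and Klf5 are the members linked to pluripotency. Klf4 is one of the 4 transduced genes, and in the body it is known for building the skin barrier and for restraining the cell cycle in epithelia. Its single probe (chr4:55549061-55549120, minus strand, mm8) had levels of 3.64 and 4.10 in four-factor cells at 5% and 21% O2, against 5.34 and 5.24 in untransduced cells. As intensity this was 14301 and 19488 units in four-factor cells and 35181 and 30552 units in untransduced cells. Both four-factor arrays lay below both untransduced arrays, and the lowest of the 4 was the four-factor array at 5% O2.

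Klf4 was thus 3.24-fold lower at 5% O2 (difference -1.70) and 2.20-fold lower at 21% O2 (difference -1.14) in the cells that had received it, and 10.4% and 14.3% of all measured genes were at least as far down. The limma estimate for culture was -1.42 ± 0.22 (SE, 4 arrays, adjusted p = 0.0139), with a lower level at both oxygen levels. Scaled on the spike-in controls Klf4 kept its direction at -0.99 and -0.63, inside 2-fold. Whether the probe lies within the part of Klf4 carried by the vector is not given, so its level cannot be read as that of the resident gene or of the transgene.

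Klf2, which keeps endothelial and T cells quiescent and can stand in for Klf4 in reprogramming, gave opposite pictures with its 2 probes. The brighter probe (chr8:75248851-75248910, plus strand) had levels of 5.55 and 5.48 in four-factor cells at 5% and 21% O2, against 5.37 and 5.51 in untransduced cells. The other probe lies downstream on the same strand (chr8:75250227-75250286) and had levels of 0.80 and 0.92 in four-factor cells, against 3.76 and 3.33 in untransduced cells. The first probe was level across the arrays, and the second fell into a low pair and a high pair by culture.

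In intensity units the second Klf2 probe read 1998 and 2149 in four-factor cells and 11822 and 8156 in untransduced cells. The differences at 5% and 21% O2 were 0.18 and -0.03 on the bright probe, with a sign that was 0.47 at 21% O2 under spike-in scaling and -0.08 at 5% O2 under quantile normalization, and -2.96 and -2.41 on the other. The gap between both probes was 3.14 at 5% O2, as large in 0.486% of the 5558 genes with 2 measured probes (median gap 0.317), and 2.38 at 21% O2, as large in 0.659% of 5466 such genes (median gap 0.276). Both probes are assigned to the same Klf2 transcript in the array's annotation. The limma estimate on the bright probe was 0.07 ± 0.17 (SE, 4 arrays, adjusted p = 0.739). The direction for Klf2 thus depended on the probe, and why the probes differ was not tested.

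Klf5 drives proliferation in gut and skin epithelia and fat cell differentiation, and it is expressed in embryonic stem cells. The probe that measured it matches segments from position 98186571 to 98196303 of chromosome 14 (mm8). Its levels were -1.08 and -0.81 in four-factor cells at 5% and 21% O2, against -0.06 and -0.54 in untransduced cells. The difference was -1.03 at 5% O2, just past 2-fold, and -0.28 at 21% O2, where spike-in scaling turned it to 0.23. The limma estimate was -0.65 ± 0.25 (SE, 4 arrays, adjusted p = 0.101), which missed the threshold. With normexp background correction limma called it (-0.68, adjusted p = 0.00756), and with spike-in scaling the estimate was -0.05 (adjusted p = 0.882). The other Klf5 probe was not well above background on any array and gives no comparison.

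Klf6 and Klf15 have metabolic or stress roles in many tissues. Klf6 is a widely expressed factor that responds quickly to injury and serum. Its brighter probe (chr13:5869371-5869430, plus strand, mm8) had levels of 2.73 and 3.19 in four-factor cells at 5% and 21% O2, against 4.24 and 4.48 in untransduced cells. The other probe (chr13:5866706-5866765) had levels of 1.07 and 1.70 in four-factor cells, against 2.56 and 2.78 in untransduced cells. Both probes put the 4 arrays in the same order, lowest in four-factor cells at 5% O2 and highest in untransduced cells at 21% O2.

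The Klf6 differences were -1.50 at 5% and -1.29 at 21% O2 on the brighter probe, and -1.49 and -1.09 on the other. The limma estimate was -1.40 ± 0.17 (SE, 4 arrays, adjusted p = 0.00937). Of all measured genes 12.4% and 12.1% were at least as far down at 5% and 21% O2. Scaled on the spike-in controls the differences were -0.80 and -0.79.

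Klf15, a glucocorticoid-induced factor that controls the use of amino acids and fat in liver and muscle and raises the glucose transporter gene Slc2a4, had the largest difference between the cultures of the 10 brightest probes at both oxygen levels with percentile scaling, whereas with spike-in scaling Klf10 and Klf3 had larger ones at 5% O2. Its brighter probe (chr6:90440517-90440576, plus strand, mm8) had levels of -2.80 and -3.13 in four-factor cells at 5% and 21% O2, against -0.56 and -0.83 in untransduced cells. That is 165 and 130 intensity units in four-factor cells and 591 and 456 units in untransduced cells. The other probe (chr6:90439701-90439760) had levels of -6.41 and -6.55 in four-factor cells, against -4.00 and -2.90 in untransduced cells. The 2 cultures stood apart on both probes.

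Klf15 was 4.72-fold lower at 5% O2 and 4.93-fold lower at 21% O2 on the brighter probe, with 6.46% and 4.39% of genes at least as far down. The differences were -2.24 and -2.30 on that probe and -2.41 and -3.66 on the other, which was near the lower limit of the array in four-factor cells. The limma estimate of -2.27 ± 0.16 (SE, 4 arrays, adjusted p = 0.00445) had the smallest adjusted p of the 10 members.

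**Figure D2:**
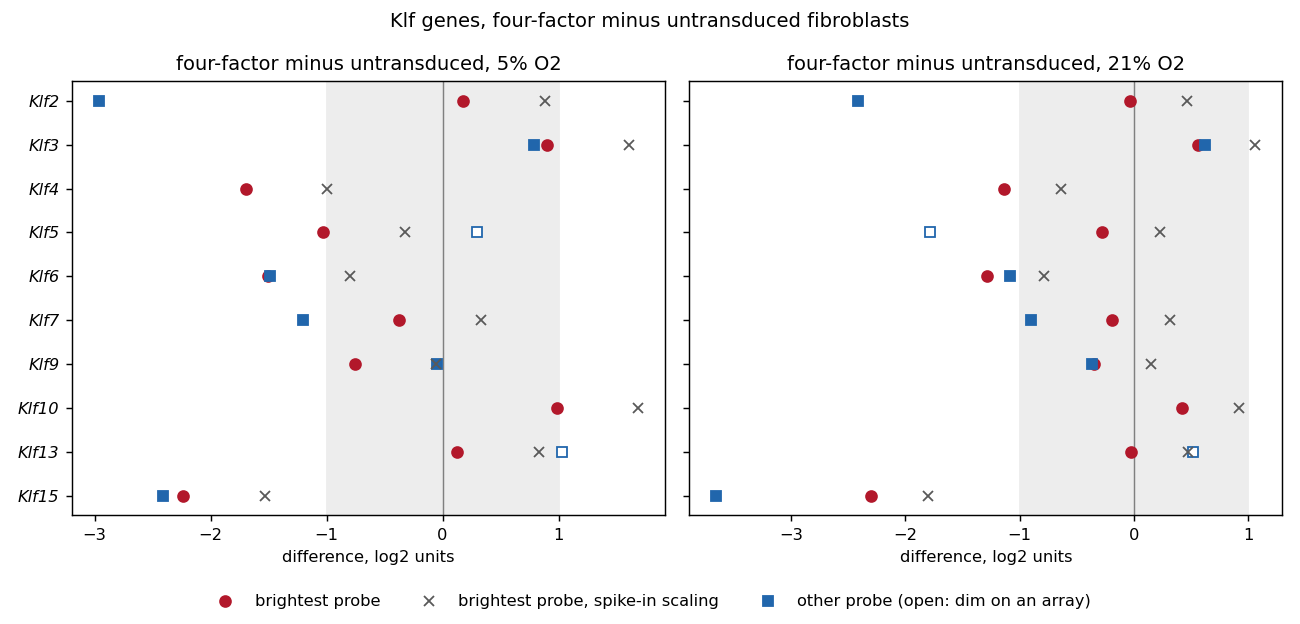
Four-factor minus untransduced difference of each Klf gene (horizontal axis: log2 units; left panel 5% O2, right panel 21% O2; 1 array per condition). Red circles are the brightest probe, crosses the same probe scaled on spike-in controls, blue squares the other probe (open where dim on an array), and the grey band is less than 2-fold; Klf15 lies left of the band on every measured probe and scaling, whereas Klf2, Klf5, Klf7, Klf9 and Klf13 lie on either side of 0 according to the scaling at 21% O2.

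The 3 members that were at least 2-fold lower at both oxygen levels, Klf4, Klf6 and Klf15, are shown with the 250 bases before their start sites, and Klf2 is shown as a member whose brighter probe was level. The sequences are from RefSeq, build GRCm38.p6, which matched 8 of the 10 members by symbol and not Klf5 or Klf10. They run 5′ to 3′ on the strand of the gene. Capitals mark CACGTG, the palindromic E box bound by basic helix-loop-helix factors such as Myc, and GGGCGG or its reverse complement CCGCCC, the GC box bound by Sp and Klf factors.
Klf4 (chr4:55532476-55532725, minus strand): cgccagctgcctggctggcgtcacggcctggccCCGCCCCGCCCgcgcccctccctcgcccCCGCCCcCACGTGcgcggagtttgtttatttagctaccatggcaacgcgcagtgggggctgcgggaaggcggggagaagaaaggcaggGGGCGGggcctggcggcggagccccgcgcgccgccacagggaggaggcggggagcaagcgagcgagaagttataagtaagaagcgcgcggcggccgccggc
Klf6 (chr13:5861239-5861488, plus strand): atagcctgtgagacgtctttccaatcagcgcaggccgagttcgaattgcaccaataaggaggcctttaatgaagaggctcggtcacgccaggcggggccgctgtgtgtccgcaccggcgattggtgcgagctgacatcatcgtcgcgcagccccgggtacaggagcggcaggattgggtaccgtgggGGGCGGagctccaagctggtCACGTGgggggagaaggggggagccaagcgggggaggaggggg
Klf15 (chr6:90462326-90462575, plus strand): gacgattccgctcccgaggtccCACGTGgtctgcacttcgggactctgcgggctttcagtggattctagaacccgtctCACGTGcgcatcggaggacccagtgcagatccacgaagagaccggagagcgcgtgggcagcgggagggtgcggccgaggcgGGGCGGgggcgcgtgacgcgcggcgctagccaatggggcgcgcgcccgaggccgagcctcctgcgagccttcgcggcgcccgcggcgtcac
Klf2 (chr8:72318812-72319061, plus strand): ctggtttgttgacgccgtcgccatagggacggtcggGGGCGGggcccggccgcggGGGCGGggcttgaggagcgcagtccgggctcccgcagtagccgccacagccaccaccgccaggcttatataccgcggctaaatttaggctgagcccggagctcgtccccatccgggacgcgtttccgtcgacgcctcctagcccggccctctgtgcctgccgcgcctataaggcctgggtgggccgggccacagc
The windows were rich in GC, at 74% for Klf4, 64.8% for Klf6, 72% for Klf15 and 71.2% for Klf2, against a median of 52.4% over all promoters, and held 32, 21, 37 and 29 CpG dinucleotides in that order, against a median of 6.

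Each motif was searched on both strands. CACGTG occurred once before Klf4, once before Klf6, 2 times before Klf15 and before none of the other 5 members with a sequence, so in 3 of 8 members and in 6.03% of 32544 promoters. CACGTG was added to the search after these sequences had been seen, and the 3 genes were picked by their differences, so the match is a description of these windows. Of all measured genes with CACGTG, 17.2% of 688 were at least 2-fold lower in four-factor cells at 5% O2, against 19.8% of 7427 genes without it, and at 21% O2 these shares were 14.0% of 681 genes and 15.8% of 7342 genes. The shares at least 2-fold higher were 19.5% with CACGTG and 17.0% without it at 5% O2, and 11.7% and 11.6% at 21% O2.

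GGGCGG was found in 7 of 8 member promoters, all but that of Klf9, and in 33.0% of all promoters. CACCC, a core that Klf proteins bind, was found in 6 of 8 (all but Klf4 and Klf6) and in 52.1% of all promoters. ACGTG, the core of the hypoxia response element and part of CACGTG on both strands, was found in 4 of 8, with Klf9 the one that lacks CACGTG, and in 16.6% of all promoters. CCAAT was found in 4 of 8 (33.8% of all) and TGACGT, part of the cAMP response element, in 2 of 8 (6.50%). TATAAA was found in 0 of 8 (12.3%). A loose pattern with the outer bases of the serum response (CArG) box, but any base between them, was found in 7 of 8 (67.3%). The search did not require A or T there, as a CArG box does, so CArG boxes themselves were not counted. A match is not a bound site, and the absence of these letters concerns this window only.

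Klf3 and Klf10 were the members with higher levels in four-factor cells at both oxygen levels, on their brightest probes with percentile scaling. Klf2 (0.18) and Klf13 (0.13) were slightly higher at 5% O2 only. Klf3 is a repressor that works through the corepressor CtBP and restrains fat cell differentiation. The brighter probe, which matches segments from position 65101464 to 65102044 of chromosome 5 (mm8), had levels of 1.45 and 1.08 in four-factor cells at 5% and 21% O2, against 0.55 and 0.52 in untransduced cells. The other probe (chr5:65108439-65108498) had levels of 0.32 and 0.19 in four-factor cells, against -0.47 and -0.43 in untransduced cells. Both probes put both four-factor arrays above both untransduced arrays.

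The Klf3 differences were 0.90 at 5% and 0.56 at 21% O2 on the brighter probe and 0.79 and 0.62 on the other. The limma estimate was 0.73 ± 0.18 (SE, 4 arrays, adjusted p = 0.0389), but over the 19593 genes well above background on any array its adjusted p was 0.0605. Its sign was the same under each scaling. Of all measured genes 19.3% and 24.1% were at least as far up at 5% and 21% O2.

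Klf10, known as an early gene of the TGF-beta response, had levels of 2.67 and 2.42 in four-factor cells at 5% and 21% O2, against 1.68 and 1.99 in untransduced cells (chr15:38239377-38239436, minus strand, mm8). In intensity units it read 7287 and 6062 in four-factor cells and 2796 and 3228 in untransduced cells. The difference was 0.98 at 5% O2, just inside 2-fold, and 0.42 at 21% O2, positive under each scaling. The limma estimate of 0.70 ± 0.22 (SE, 4 arrays, adjusted p = 0.0619) missed the threshold. Klf10 was called by limma with normexp background correction (adjusted p = 0.00304), with spike-in scaling (adjusted p = 0.00115) and over genes measured on all 4 arrays (adjusted p = 0.0311), and with normexp its difference at 5% O2 was 1.02. With percentile scaling every member but Klf15 had a difference of larger size at 5% than at 21% O2 on its brightest probe, and more of all genes were 2-fold apart at 5% O2 too, as given above. This was not tested.

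Klf7, Klf9 and Klf13 were not called by the additive model with the main settings and stayed within 2-fold on their brightest probes. Klf7, a factor of axon growth in neurons, had levels of 1.31 and 1.29 in four-factor cells at 5% and 21% O2, against 1.68 and 1.48 in untransduced cells, on its brighter probe (chr1:64013046-64013105, minus strand, mm8). On its other probe (chr1:63967840-63967899) the levels were 0.68 and 0.74 in four-factor cells, against 1.88 and 1.64 in untransduced cells. The differences were -0.37 and -0.19 on the first probe, where spike-in scaling gave 0.33 and 0.32, and -1.20 and -0.90 on the second, which the array's annotation ties to a cDNA clone of the gene.

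Klf9 is induced by glucocorticoids and thyroid hormone. Its brighter probe (chr19:23232745-23232804, plus strand, mm8) had levels of 0.49 and 0.89 in four-factor cells at 5% and 21% O2, against 1.25 and 1.24 in untransduced cells. The differences were -0.76 at 5% O2, which was -0.05 under spike-in scaling, and -0.35 at 21% O2, where that scaling turned the sign to 0.15. The other probe (chr19:23231944-23232003), well above background on all 4 arrays, had levels of -2.35 and -2.48 in four-factor cells and -2.30 and -2.11 in untransduced cells. Its differences were -0.05 at 5% and -0.37 at 21% O2, so the probes were apart at 5% O2. The limma estimate was -0.55 ± 0.19 (SE, 4 arrays, adjusted p = 0.0806), which passed the threshold with normexp (adjusted p = 0.00448) and over genes measured on all 4 arrays (adjusted p = 0.0461).

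Klf13, which controls the chemokine gene Ccl5 in T cells, was level on its brighter probe, at 1.77 and 1.75 in four-factor cells at 5% and 21% O2, against 1.64 and 1.78 in untransduced cells. The probe matches segments between positions 63770693 and 63816921 of chromosome 7 (mm8). Under spike-in scaling its differences of 0.13 and -0.03 became 0.83 and 0.48. The other Klf13 probe was close to the detection limit, with levels of -6.36 and -6.12 in four-factor cells, and it was not well above background in untransduced cells, so it gives no fold. The limma estimate was -0.28 ± 0.17 for Klf7 (SE, 4 arrays, adjusted p = 0.231) and 0.05 ± 0.17 for Klf13 (SE, 4 arrays, adjusted p = 0.814). With spike-in scaling limma called Klf13 (0.65, adjusted p = 0.041) and Klf2 (0.68, adjusted p = 0.0365) higher.

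With oxygen the members stayed inside 2-fold on their brightest probes in both cultures, as did most genes. The quartiles of all genes were -0.21 and 0.17 in four-factor cells and -0.22 and 0.17 in untransduced cells. Outside them lay Klf3, Klf4, Klf5, Klf6, Klf9, Klf10 and Klf15 in four-factor cells. In untransduced cells these were Klf5, Klf6, Klf7, Klf10 and Klf15. At 5% minus 21% O2 in four-factor cells, the differences ran between -0.46 (Klf4 and Klf6) and 0.37 (Klf3), with 6 of 10 above 0 and a median of 0.02 (0.13 with spike-in scaling), against -0.01 over all genes. In untransduced cells they ran between -0.31 (Klf10) and 0.48 (Klf5), with 6 of 10 above 0, Klf3 and Klf9 by so little that spike-in scaling turned them, and a median of 0.02 (-0.06 with that scaling), against -0.04 over all genes. In four-factor cells 9.30% of genes were at least as far down as Klf4 and 9.36% as far down as Klf6, and 11.4% were at least as far up as Klf3.

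Klf6 was lower at 5% O2 in both cultures and on both probes, by 0.46 and 0.62 log2 units in four-factor cells and by 0.24 and 0.22 in untransduced cells, and under each scaling. Klf15 was higher at 5% O2 on its brighter probe, by 0.33 in four-factor cells and by 0.27 in untransduced cells. On its other probe Klf15 was 0.14 higher in four-factor cells, but in untransduced cells it was 1.11 log2 units lower, a gap between probes of 1.38 that was as large in 0.239% of 5439 genes. The remaining members showed differences of 0.02 to 0.46 in size in four-factor cells, and those of Klf2, Klf7 and Klf13 were below the spot error of 0.142.

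In the limma model no member was called for oxygen, nor was any of the 18359 genes (0%), with a smallest adjusted p of 0.437 over all genes. At an unadjusted p under 0.05, 646 genes were higher and 753 lower at 5% O2, and none of the 10 members was among them. The smallest adjusted p of a member was 0.727, for Klf6, at an estimate of -0.35 ± 0.17 (SE, 4 arrays). Among genes with 2 measured probes the direction was the same for 3 of 7 members with oxygen in four-factor cells and for 2 of 6 in untransduced cells. For four-factor minus untransduced cells it was the same for 5 of 6 members at 5% and 6 of 6 at 21% O2. The latter count includes Klf2, with -0.03 on its bright probe, below the spot error of 0.113, and -2.41 on the other. Agreement of direction was not counted over all genes.

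**Figure D3:**
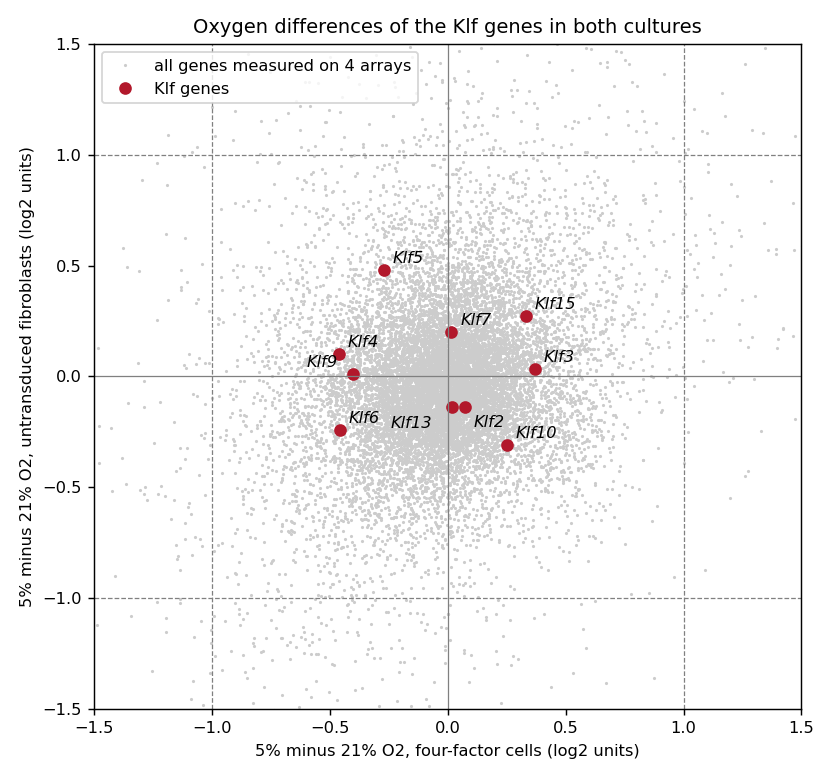
Oxygen differences, 5% minus 21% O2, in four-factor cells (horizontal axis) and untransduced cells (vertical axis), both in log2 units, with 1 array per condition. Red points are the 10 Klf genes on their brightest probe, grey points all 14981 genes measured on 4 arrays, of which those beyond the axes are not drawn, and dashed lines mark 2-fold; all 10 Klf genes lie inside the 2-fold lines.

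The genes whose pattern over the 4 arrays was most like that of Klf4 were sought among 12240 genes that were measured on every array and have a symbol in the RefSeq gene table, by the Euclidean distance between profiles centred on their own means. They were Lamb2 (distance 0.0198 log2 units), which encodes a laminin chain, H1f2 (0.0287), a linker histone, Rab2b (0.0346), a small GTPase, Sumf1 (0.0452), which activates sulfatases, and Rnf170 (0.0456), a ubiquitin ligase. With 4 arrays, many genes can share such a shape.

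List values were scaled on the percentile, and spike-in scaling turned the sign of any four-factor minus untransduced median or value that lay below 0 by less than 0.70 at 5% or 0.50 at 21% O2. Of the other Klf and Sp factors, the relatives that share the zinc fingers, 10 were measured in both cultures at 5% O2, and 3 were at least 2-fold higher and 1 lower in four-factor cells (median 0.15). Klf8 had levels of 0.16 in four-factor cells and -2.98 in untransduced cells, a difference of 3.14. Klf16 (1.44) and Sp6 (1.05) were also higher and Klf12 (-1.28), a repressor that works through CtBP, was lower. At 21% O2 2 of 9 were higher (Klf8 2.45 and Sp6 1.46) and 1 lower (Klf12 -1.20), with a median of 0.48. Klf14 was at least 21.9-fold and 12.8-fold lower in four-factor cells at 5% and 21% O2. With oxygen 1 of 13 was 2-fold lower in four-factor cells (Sp5 -1.24) and 0 of 10 differed 2-fold in untransduced cells. Sp8 was well above background on 1 array, that of untransduced cells at 5% O2, where four-factor cells were at least 17.9-fold lower, and within untransduced cells it was at least 4.60-fold higher at 5% O2.

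Cofactors and regulators of Klf proteins, such as the CtBP and Sin3 corepressors, histone acetyltransferases and the Erk5 kinase pathway upstream of Klf2 and Klf4, were all measured (20 of 20). At 5% O2 Ctbp2 was 1.23 higher in four-factor cells, and the acetyltransferase gene Kat2b (-1.17) and Mapk7 (-1.06), which encodes Erk5, were lower, with a median of 0.14. At 21% O2 only Kat2b passed 2-fold (-1.11), and the median was -0.01. None of the 20 differed 2-fold with oxygen in either culture, with medians of 0.01 in four-factor cells and -0.10 in untransduced cells.

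Serum and immediate early genes, the class in which several Klf genes are often placed, had lower levels at 5% O2 in both cultures. In four-factor cells 14 of 15 were below 0 and none reached 2-fold (median -0.28, with Dusp1 at -0.88). In untransduced cells 14 of 14 were below 0 and 5 were at least 2-fold lower (median -0.83), among them Nr4a1 (-1.70), Egr3 (-1.56), Egr2 (-1.26) and Ier3 (-1.09). Between the cultures the medians were 0.32 at 5% O2, with 4 of 14 higher (Nr4a1 2.36), and -0.42 at 21% O2, with 2 of 15 higher and 4 lower.

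The TGF-beta early genes, Klf10's class, had medians of -0.38 in four-factor cells and -0.46 in untransduced cells for 5% minus 21% O2, where 1 and 3 of 13 were at least 2-fold lower (Ccn1 -1.01 in four-factor cells, and among the 3 Ccn2 -1.51 and Ccn1 -1.34 in untransduced cells). Klf10 itself was 0.25 higher and 0.31 lower in these comparisons. Between the cultures 2 of 13 were higher and 4 lower at 5% O2 (median -0.28), and 0 higher and 2 lower at 21% O2 (median -0.32).

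Glucocorticoid-induced genes, the class of Klf9 and Klf15, were split between the cultures, with 3 of 10 higher and 4 of 10 lower in four-factor cells at each oxygen level and medians of -0.55 at 5% and -0.81 at 21% O2. Tsc22d3, which encodes the glucocorticoid-induced leucine zipper, was lower (-2.64 at 5% and -2.03 at 21% O2), as was the kinase gene Pdk4 (-2.42 and -2.48), and Fkbp5, a chaperone of the receptor, was higher (2.37 and 1.54). None of the 10 differed 2-fold with oxygen in either culture.

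Genes that act with Klf factors in fat cell differentiation were mostly lower in four-factor cells: 8 of 10 measured at 5% O2 (median -1.56) and 6 of 10 at 21% O2 (median -1.55) were at least 2-fold lower, and 0 higher. Lipoprotein lipase, Lpl, had levels of 0.53 in four-factor cells and 6.42 in untransduced cells at 5% O2 (difference -5.89, and -4.80 at 21% O2). The preadipocyte gene Dlk1 (-5.86 and -5.38), the fatty acid binding protein gene Fabp4 (-3.15 and -2.10) and Slc2a4, the glucose transporter gene named above with Klf15 (-2.83 and -2.97), were lower too. In untransduced cells Lpl (1.17) and Fabp4 (1.12) were at least 2-fold higher and Gata3 (-1.25) lower at 5% O2, and in four-factor cells 0 of 10 were.

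Pluripotency genes tied to Klf2, Klf4 and Klf5 were poorly covered, with 5 of 11 measured in both cultures at 5% O2 and 4 at 21% O2. In four-factor cells 3 of 7 were at least 2-fold higher at 5% than at 21% O2 (Nr0b1 2.09, Tfcp2l1 1.34 and Zfp42 1.20), and 3 more by a lower bound (Tdgf1 at least 6.64-fold, Nanog 2.43-fold and Sox2 2.26-fold). In untransduced cells 1 of 5 was at least 2-fold higher at 5% O2 (Sox2 1.63). Between the cultures at 5% O2, 3 of 5 measured were at least 2-fold lower in four-factor cells (Sox2 -2.82, Lefty1 -2.07 and Tbx3 -1.21) and 1 higher (Tfcp2l1 1.27), with a median of -1.21, and 3 more were at least 2-fold higher by a lower bound (Pou5f1, Nr0b1 and Tdgf1). Pou5f1 and Sox2 are transduced genes, so their levels in four-factor cells cannot be read as those of the resident gene or of the transgene. Among epithelial and cell cycle targets of Klf4 and Klf5, 6 of 11 were higher and 0 lower in four-factor cells at 5% O2 (median 1.26, with the keratin gene Krt8 at 4.60 and cyclin B1, Ccnb1, at 2.55), and 5 of 10 higher and 1 lower at 21% O2 (median 0.73, with Krt8 at 4.12).

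**Figure D4:**
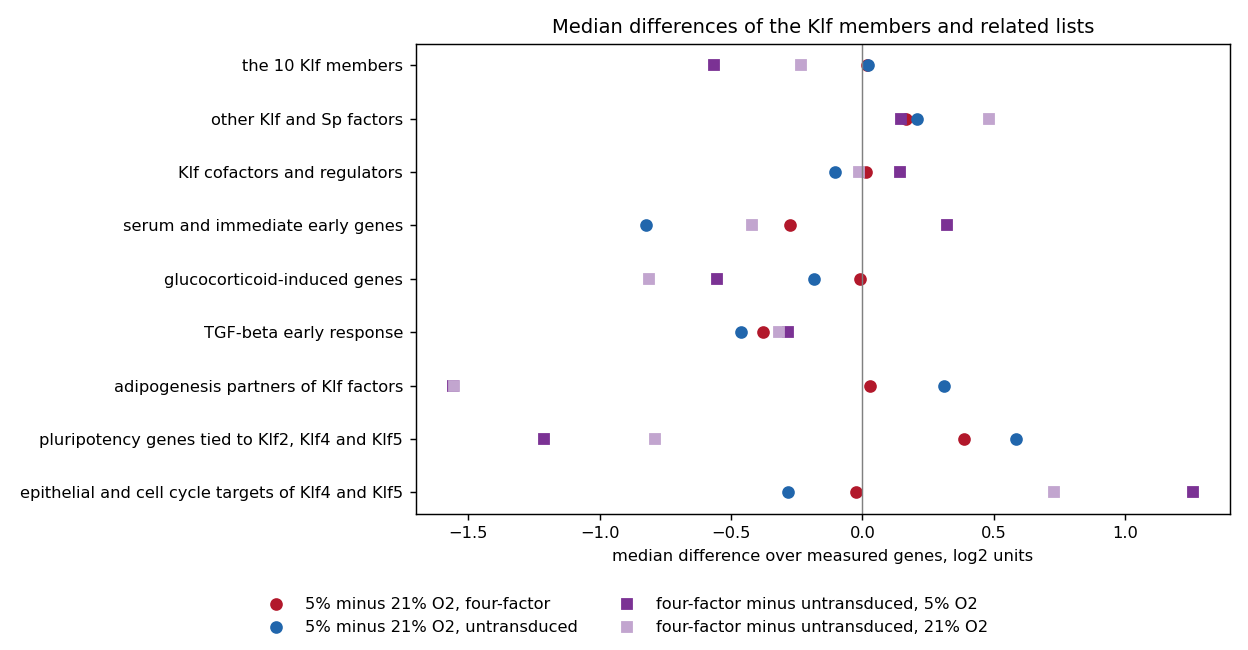
Median difference of the 10 Klf genes and of 8 related lists (horizontal axis: log2 units, percentile scaling, over the genes of a list measured on both arrays; 1 array per condition). Circles are 5% minus 21% O2 in four-factor cells and untransduced cells, and squares four-factor minus untransduced cells at 5% and 21% O2; the Klf genes lie at -0.57 and -0.23 for the squares and at 0.02 for both circles, and the fat cell list lies furthest left at about -1.56 and -1.55.

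Markers of other cell types differed between the same arrays. Of 10 macrophage markers, four-factor cells had 5 above background and untransduced cells 10, with median levels of -6.36 and -6.26 in four-factor cells and -0.48 and -2.00 in untransduced cells at 5% and 21% O2. In untransduced cells all 10 were at least 2-fold higher at 5% O2 (median 1.42), and Lyz2 was 7.26 and 6.07 log2 units lower in four-factor cells at 5% and 21% O2. Of 7 neural and glial markers 6 were measured, and at 5% O2 4 were at least 2-fold lower in four-factor cells (Sox10 -5.22) and 1 higher (Tubb3 2.20). In untransduced cells 4 of these 6 were at least 2-fold higher at 5% O2 (median 1.12). Of 6 adipocyte markers 3 were measured, all 3 at least 2-fold lower in four-factor cells at 5% O2. Fibroblast markers were 2-fold lower in four-factor cells in 7 of 10 cases at each oxygen level (medians -1.76 at 5% and -1.73 at 21% O2).

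Of 8 epithelial markers 7 were well above background on each four-factor array, against 6 and 3 on the untransduced arrays at 5% and 21% O2, and 4 of 5 measured on both arrays were higher in four-factor cells at 5% O2. Of 8 endothelial markers four-factor cells had 6 and 5 above background at 5% and 21% O2, against 3 on each untransduced array. Of 6 skeletal muscle markers four-factor cells had 3 and 4, against 4 on each untransduced array. The lowest level well above background was -6.90 and -6.85 on four-factor arrays at 5% and 21% O2. On untransduced arrays it was -5.13 and -4.93. Dim markers were thus counted more readily in four-factor cells, and how far this shaped the counts was not tested. These are bulk samples, in which fewer cells of a type and less RNA per cell cannot be told apart, and the part of these cell types in the Klf differences was not tested.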

How the data were processed

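Gene expression was measured in 4 samples on Agilent one-colour (Cy3) arrays of design 014868. Per the labels' protocols, Trizol was used for the RNA and the Quick Amp protocol 5.7 for the label. The deposited scanner tables hold a processed intensity that Feature Extraction 9.5.3.1 had corrected for background and for trends across the array, per the file headers, and beside it the uncorrected mean intensity of each spot and the median intensity of its background. The deposited value table holds log2 values made with software that the sources used here do not give. Compared with the levels described next, it lay within 0.01 for 99.8% to 99.9% of probes, was not centred per probe, and its column medians were -3.87 and -3.86 in four-factor cells and -3.69 and -3.71 in untransduced cells at 5% and 21% O2.

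Of 45018 spots 43379 were not controls. Without outlier spots, the log2 processed signals were averaged over the spots of a probe, and the 75th percentile of the array was subtracted. Replicate spots had a standard deviation of 0.108 and 0.0925 log2 units on four-factor arrays and 0.0653 and 0.0646 on untransduced arrays at 5% and 21% O2. A gene was called at least 2-fold apart only where both arrays were well above background. For a bound, the dim side was set at its own signal or at the array's lowest signal well above background, whichever was higher. Gene names are the array's, matched to a gene table of GRCm38.p6 for names (24367 probes). Probe positions are those of build mm8, per the file headers, and no annotation of that build was used.

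The additive model used limma 3.58.1 in R 4.3.3 (lmFit, eBayes, Benjamini-Hochberg adjustment) on the 18359 genes that passed the background test on 2 or more arrays. It was tested on simulated data. Tables and figures used Python 3.11.15 with pandas 2.3.3, numpy 2.4.6 and matplotlib 3.10.9. The members and gene lists were chosen with earlier results of these data known. All members are named, and up to 4 genes of each list by the size of their difference, and 1 gene that this rule covers is not reported here. Alternatives were normexp background correction, quantile and spike-in scaling, the deposited values, other filters and other probe rules.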

Additional observations from a re-analysis of the deposited data

Results flagged for a closer look

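For 3 members the oxygen difference had opposite signs in the 2 cultures and was larger than the spot error in both, which was seen on single arrays and not tested. How many of all genes meet this rule was not counted. The oxygen differences of the 2 cultures were at least 2-fold apart in 4.65% of 14981 genes and in 0 members. Klf2, Klf9 and Klf13 also had opposite signs, but with a difference below the spot error in at least 1 culture. Klf4 was lower at 5% than at 21% O2 in four-factor cells (-0.46) and slightly higher in untransduced cells (0.10), so the four-factor difference minus the untransduced one was -0.561 log2 units. Klf5 was lower in four-factor cells (-0.27) and higher in untransduced cells (0.48), a difference of -0.751. Klf10 was higher in four-factor cells (0.25) and lower in untransduced cells (-0.31), a difference of 0.562. None of these could be checked on a second probe, as Klf4 and Klf10 have 1 probe and the other Klf5 probe was dim on all arrays. Among members with 2 measured probes, the second probe turned the sign of this difference for Klf2 (0.21 to -0.55) and Klf9 (-0.41 to 0.32). It kept the sign for Klf3, Klf6, Klf7 and Klf15. The spot errors of the 2 oxygen differences were 0.142 in four-factor cells and 0.0919 in untransduced cells, and the Klf4 value of 0.10 in untransduced cells was about as large as its spot error. That Klf4 value was 0.01 with spike-in scaling, below the spot error, and 0.22 with quantile normalization.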

How the results depend on the processing

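Of 285 values of single members recomputed under the alternatives, 225 moved by less than the spot error and 60 by more. No value that was past 2-fold with the main settings changed sign. Leaving out the dim filter kept every value, and the deposited values were nearly the same data, so neither could move much. Spike-in scaling moved every four-factor minus untransduced value by more than the spot error, by 0.70 at 5% and 0.50 at 21% O2. That shift is too small to turn the sign of a value past 2-fold. Klf2 in four-factor minus untransduced cells at 5% O2 was 0.18 with the main settings, -1.39 as the mean over probes and -2.96 on the dimmer probe. The count of members at least 2-fold apart in four-factor minus untransduced cells was 3 to 5 at 5% O2 (main count 4) and 2 to 4 at 21% O2 (main count 3). With the dimmer probe of genes with 2 probes, chosen after seeing the data, 1 of 6 measured members passed 2-fold with oxygen in untransduced cells (Klf15, -1.11). Of all 3040 genes measured by such a probe 3.26% passed. With the main settings 0 of 10 members and 4.27% of 15255 genes did. The additive limma model called 4 of 10 members for culture with the main settings, beside 9169 of all 18359 genes. It called 3 over genes well above background on any array (7552 of 19593 genes) and 6 over those on all 4 arrays (8645 of 14981 genes). Over the 18359 genes it called 4 members with quantile normalization (8593 genes) and 7 with normexp background correction (10102 genes). With spike-in scaling, a setting of the model added after seeing the data, it called 7 (12008 genes). Calls for culture were thus common among all genes under each setting. For oxygen it called 0 genes with the main settings, 182 with normexp and 126 with spike-in scaling, and 0 members under each. With normexp the genes at least 2-fold higher and lower with oxygen were 98 and 37 in four-factor cells (main 225 and 193) and 196 and 132 in untransduced cells (main 388 and 263), and without a filter on dim probes they were 907 and 908, and 1076 and 1110. Without that filter four-factor minus untransduced counts were 4070 and 10057 at 5% O2 and 3050 and 9852 at 21% O2. No paired analysis was possible because each condition had 1 array and so no replicate numbers to pair, beyond the additive model, which itself sets the cultures against each other within each oxygen level. The cause of these changes was not tested. With 1 array per condition, the spread between cultures is unknown, and dim probes, as of Klf13 and Klf15, carry the least signal over background.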
